A study of Neurospora crassa with 16 samples.

Results

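The transcripts described here are those of the Δstk-12 strain of the filamentous fungus Neurospora crassa between day 3 and day 5 of growth on cellulose, chosen by label as the 2 libraries of the mutant at 3d and its 2 libraries at 5d, 4 of the 16 libraries in the series. By its label the strain lacks stk-12, the gene of a serine/threonine kinase. It was compared in the series with a wild-type strain (WT) at 12h, 1d, 3d and 5d, with 2 libraries in each of the 8 groups. All cultures were started from conidia, the asexual spores, and grown at 25 °C in constant light in Vogel's salts with 2% (w/v) Avicel, a crystalline cellulose, as the carbon source; whole mycelium was harvested for RNA. No label says that the replicates were separate cultures or how many clones stand behind the strain, so the p-values rest on the spread between these libraries alone, and that spread may be technical. RNA-seq reads were counted per gene. Reads assigned to genes numbered 19583199 and 20993981 in the mutant at 3d and 18336221 and 22731924 at 5d, and levels are given in CPM, counts per 1000000 after scaling between libraries by TMM, a trimmed mean of gene ratios.

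Neurospora crassa degrades plant cell walls outside the cell. Cellobiohydrolases and endoglucanases cut cellulose chains, lytic polysaccharide monooxygenases and cellobiose dehydrogenase attack them by oxidation, and the cellodextrins released are taken up by transporters and split by beta-glucosidases. The transcription factors CLR-1 and CLR-2 are needed for induction of the cellulase genes on cellulose, XLR-1 for the xylanase genes, and CRE-1 represses such genes when preferred sugars are at hand.

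The kinase gene itself was checked first. stk-12 held 37.7 and 33.9 CPM at 3d and 48.03 and 46.4 CPM at 5d in the mutant against 100.1 and 104.6 CPM at 3d and 108 and 110.1 CPM at 5d in WT, so that reads of the gene remained in the mutant and lay higher at 5d than at 3d, with a log2 fold change of 0.40 ± 0.07 (SE, adjusted p = 0.000125). Counts per gene do not show which part of the gene these reads came from. The strains differed in a second respect: matA-1, a mating type A gene, had 0 reads in all 4 mutant libraries and 181 and 176 CPM at 3d and 114.8 and 84.7 CPM at 5d in WT. Differences between the strains therefore cannot be told apart from differences between mating types. The fold changes of the mutant at 5d over 3d compare mutant libraries with each other. Markers of the labelled tissue's possible other cell types, conidia and sexual tissue, are given below beside the gene groups.

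The transcriptome changed broadly over the 2 days. Of 8983 genes tested, 5653 (62.9%) passed an adjusted p of 0.05, 2848 of them higher at 5d (31.7%) and 2805 lower (31.2%), and 683 and 799 of these differed by at least 2-fold. For the gene lists below, counts of members higher or lower at 5d stand beside these shares of 31.7% and 31.2%. The groups of 2 libraries did not overlap for 82.3% of all genes. Scaling by library totals alone moved the median log2 fold change of all genes from 0.01 to 0.19, a shift of 0.18, and changed the split to 3857 higher and 2064 lower, 65.1% of the called genes being higher in place of 50.4%. Values after "rose by" or "fell by" and values in brackets after a gene are log2 fold changes of 5d over 3d. In bulk RNA, fewer cells of a type and less RNA per cell cannot be told apart. Per length, on the RPKM scale that the authors deposited, the transcripts with the highest mean level at 3d were gh61-13 (15670.0), cbh-1 (10573) and gh6-2 (9035), all cellulose-degrading enzymes, and 12 of the 20 highest were in the lists of cellulases, oxidative enzymes and hemicellulases. At 5d the highest was ccg-16, annotated as a CVNH domain-containing protein (17432 RPKM), followed by the hypothetical protein NCU05498 (5818 RPKM), and 2 of the 20 were in those lists. The 10 most abundant genes took 12.4 and 13.4% of gene reads at 3d and 6.70 and 7.09% at 5d.

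Transcripts of cellulases fell in the mutant. All 9 tested members of the list fell, against 31.2% of all genes, with a median log2 fold change of -2.62 beside 0.01 over all genes. Their summed share of gene reads went from 5.99% and 6.73% at 3d to 1.20% and 1.26% at 5d. The size of this drop depended on the most abundant genes. With the 10 most abundant genes of each library left out, the share was 0.88% and 0.97% at 3d and 0.69% and 0.74% at 5d. The most abundant, cbh-1, a cellobiohydrolase of glycoside hydrolase family 7, held 27904 and 33267 CPM at 3d and 4853 and 5125 CPM at 5d. Neither 5d library reached the level of either 3d library, and the log2 fold change was -2.62 ± 0.12 (SE, adjusted p = 1.33e-11). gh6-2, a second cellobiohydrolase, held 12354 and 13674 CPM at 3d and 1958 and 2052 CPM at 5d, a log2 fold change of -2.70 ± 0.11 (SE, adjusted p = 4.05e-12). The steepest fall was that of the endoglucanase gh5-1, with 3477 and 3964 CPM at 3d and 313 and 350.1 CPM at 5d and a log2 fold change of -3.49 ± 0.12 (SE, adjusted p = 4.98e-13). Both groups stood apart for these genes too. The endoglucanases gh45-1, gh7-2 and gh7-1 had log2 fold changes of -3.14, -3.06 and -2.39, and gh6-3, annotated as exoglucanase 3, had -2.11. gh7-4 held 268 and 303 CPM at 3d and 114 and 127 CPM at 5d and gh6-1 30.1 and 37.7 CPM at 3d and 17.5 and 20.9 CPM at 5d; these members had the smallest log2 fold changes of the list, -1.25 and -0.82.

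**Figure D1:**
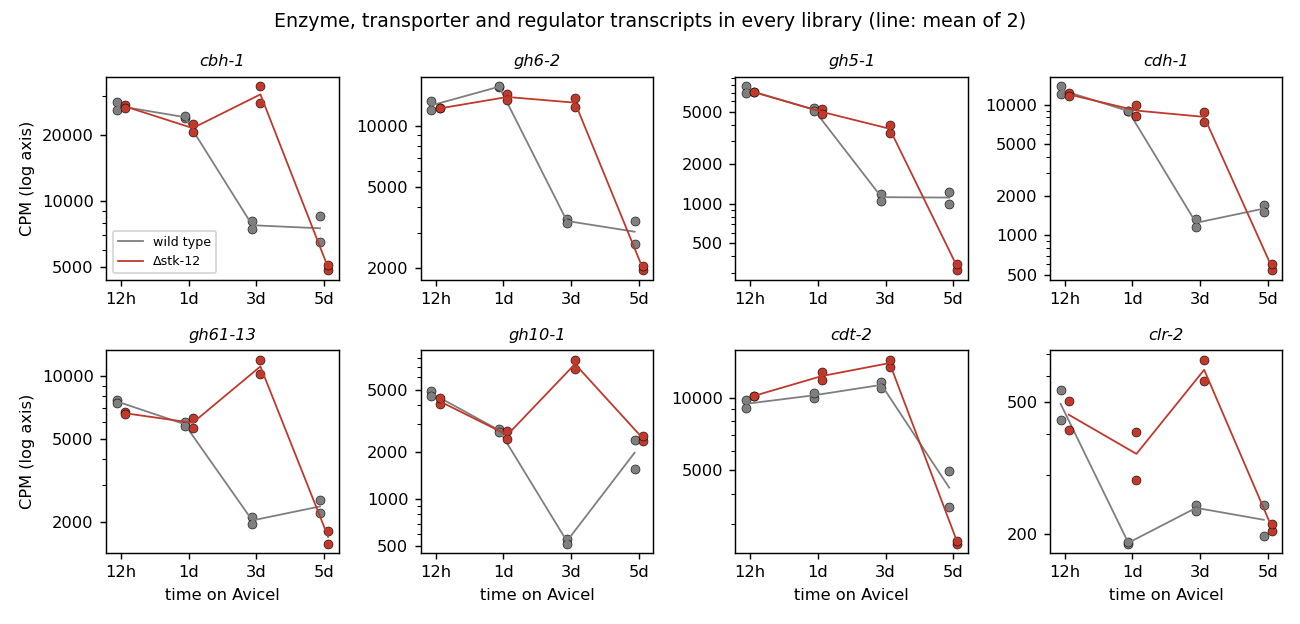
Level in CPM (log axis) of 8 genes in every library at 12h, 1d, 3d and 5d, in wild type (grey) and Δstk-12 (red); points are libraries and lines join the means of 2. In the mutant, cbh-1 stood at 30586 CPM at 3d and 4989 at 5d, and in wild type at 7776 CPM at 3d and 7533 at 5d.

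Oxidative enzymes fell as far. Of 17 tested members, 14 fell and 0 rose, with a median of -2.69. cdh-1, the cellobiose dehydrogenase that passes electrons to the monooxygenases, held 7333 and 8795 CPM at 3d and 540.2 and 599.7 CPM at 5d, a log2 fold change of -3.82 ± 0.13 (SE, adjusted p = 4.37e-13). gh61-12, a monooxygenase gene of the family formerly called GH61, held 462 and 473 CPM at 3d and 15.2 and 14.5 CPM at 5d and fell most (-4.98 ± 0.10 SE, adjusted p = 5.91e-15). gh61-13, the most abundant per length at 3d, held 10258 and 12000.3 CPM at 3d and 1814 and 1573 CPM at 5d, a log2 fold change of -2.72 ± 0.10 (SE, adjusted p = 2.04e-12). In each of these the 5d libraries lay below both 3d libraries. gh61-14, gh61-9, gh61-3 and gh61-7 had log2 fold changes of -4.26, -3.92, -3.68 and -3.07. The members that did not pass were gh61-10 (0.13, adjusted p = 0.465), cdh-2 (-0.15, 0.189) and NCU07974 (-0.14, 0.162), none of them among the abundant members. In the deposited carbohydrate-active enzyme annotation, family AA9, which holds these monooxygenases, had 12 of 14 members lower and a median of -2.41.

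Hemicellulases and pectin enzymes went the same way. Of 27 hemicellulases, 23 fell and 1 rose, with a median of -1.78. The xylanase gh10-1 held 6791 and 7756 CPM at 3d and 2364 and 2528 CPM at 5d, a log2 fold change of -1.57 ± 0.14 (SE, adjusted p = 7.06e-08). gh11-1, another xylanase, held 592 and 708 CPM at 3d and 131 and 139 CPM at 5d (-2.27 ± 0.15 SE, adjusted p = 1.09e-09). The groups did not overlap in either. NCU09416, annotated as a cellulose-binding GDSL lipase/acylhydrolase, fell most within the list, from 689 and 729 CPM to 24.6 and 27.8 CPM (-4.76 ± 0.10 SE, adjusted p = 5.91e-15). gh74-1, annotated as Cel74a, and gh62-1 also fell (-3.84 and -3.14 on the log2 scale). The rise was that of gh43-4, annotated as an alpha-N-arabinofuranosidase, with 41.5 and 49.3 CPM at 3d and 73.8 and 83.03 CPM at 5d (0.79 ± 0.10 SE, adjusted p = 2.73e-06). All 7 pectin enzymes fell, with a median of -1.46. Among them the pectate lyase gene ply-2 held 299 and 363 CPM at 3d and 29.6 and 32.3 CPM at 5d (-3.42 ± 0.17 SE, adjusted p = 3.83e-11). The gene asd-1, annotated as rhamnogalacturonase B, is given below with the sexual tissue markers. fea-1, annotated as feruloyl esterase B, stood at 2031 and 2679 CPM at 3d and 139 and 156 CPM at 5d, a log2 fold change of -3.99 ± 0.18 (SE, adjusted p = 1.01e-11). Over the deposited class annotation, 18 of 23 carbohydrate esterases fell and 2 rose, and 4 of 4 polysaccharide lyases fell. Glycoside hydrolases as a class split into 50 that rose and 83 that fell of 169, with a median of -0.26.

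Starch enzymes moved the other way. Of 11 starch and sucrose enzymes, 7 rose (31.7% of all genes rose) and 0 fell, with a median of 0.71. gh31-1, an alpha-glucosidase, rose most, from 14.7 and 20.4 CPM to 124 and 119.9 CPM, a log2 fold change of 2.79 ± 0.14 (SE, adjusted p = 5.11e-11).

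**Figure D2:**
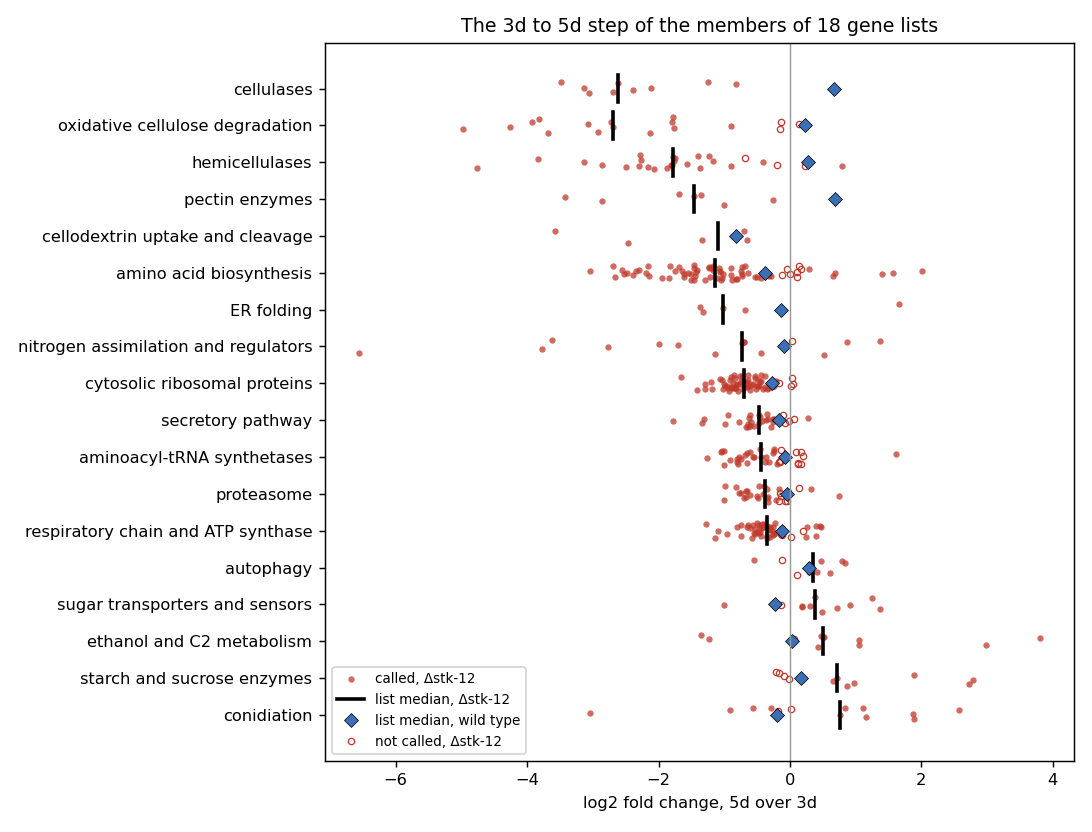
Log2 fold change of 5d over 3d (horizontal axis) for each member of 18 gene lists (rows) in Δstk-12: filled points passed the test, open points did not, black bars are list medians and blue diamonds are the medians of the same lists in wild type. The cellulase median is -2.62 in the mutant and 0.67 in wild type; vertical scatter within a row has no meaning.

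Genes that take up and split cellodextrins fell by less. All 6 fell, with a median of -1.10. cdt-2, a cellodextrin transporter, held 13447 and 14376 CPM at 3d and 2488 and 2555 CPM at 5d, a log2 fold change of -2.46 ± 0.12 (SE, adjusted p = 3.96e-11). cdt-1, the second such transporter, held 3306 and 3563 CPM at 3d and 1315 and 1391 CPM at 5d (-1.34 ± 0.11 SE, adjusted p = 2.03e-08). The intracellular beta-glucosidase gene gh1-1 held 989 and 1033 CPM at 3d and 79.5 and 90.6 CPM at 5d (-3.57 ± 0.13 SE, adjusted p = 9.17e-13). Each 5d library lay below each 3d library. gh3-4, a secreted beta-glucosidase, NCU05853, annotated as a sugar transporter, and gh3-3 had log2 fold changes of -0.66, -0.85 and -0.71. In contrast, 9 of 11 other sugar transporters and sensors rose and 1 fell, a count that dropped to 5 higher without replicate 1 of the mutant at 3d. NCU00821, annotated as a sugar transporter, rose most (56.4 and 63.9 CPM at 3d and 154 and 157 CPM at 5d, 1.37 ± 0.12 SE, adjusted p = 3.86e-08). NCU04963, annotated as a high-affinity glucose transporter, rose by 0.92, while NCU02188, a sugar transporter, was the member that fell (-1.01).

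Regulators of these enzymes moved in both directions. Of 12 tested, 4 rose and 4 fell, shares near those over all genes (31.7% higher and 31.2% lower). clr-2, whose product activates the cellulase genes, held 581 and 673 CPM at 3d and 203 and 215 CPM at 5d, a log2 fold change of -1.59 ± 0.15 (SE, adjusted p = 9.13e-08). clr-1, which acts above clr-2, held 306 and 329 CPM at 3d and 216 and 213 CPM at 5d (-0.56 ± 0.07 SE, adjusted p = 4.98e-06). NCU05846, listed as a hypothetical protein, held 1369 and 1438 CPM at 3d and 192 and 205 CPM at 5d (-2.82 ± 0.11 SE, adjusted p = 2.38e-12). NCU01856, annotated as the transcriptional activator hac1, fell by 1.01. The rises were led by cre-1, the carbon catabolite repressor, at 269 and 288 CPM at 3d and 799 and 734 CPM at 5d (1.46 ± 0.18 SE, adjusted p = 3.20e-06). col-26, a regulator of starch-degrading enzymes, held 144 and 149 CPM at 3d and 331 and 322 CPM at 5d (1.15 ± 0.07 SE, adjusted p = 8.84e-10). For cre-1 and col-26 both 5d libraries lay above both 3d libraries. xlr-1, the xylanase regulator, held 386 and 414 CPM at 3d and 418 and 395 CPM at 5d, with a log2 fold change of 0.02 and an adjusted p of 0.811. vib-1 held 358 and 375 CPM at 3d and 369 and 376 CPM at 5d, with 0.02 (0.809). The libraries of both times overlapped for xlr-1 and vib-1, although scaling by library totals alone would call them higher, at 0.20 and 0.20.

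The same 2 days were set beside WT, whose levels at 3d and 5d are not part of the mutant fold changes but whose libraries share the fit, and so its scaling and its estimate of the spread. With the 4 mutant libraries of 3d and 5d fitted alone, 5898 genes passed in the mutant step. Over all genes, 4905 (54.6%) passed in WT, 2436 higher (27.1%) and 2469 lower (27.5%). Of the 2848 genes that rose in the mutant, 1218 also rose in WT, which is 42.8% of the mutant list and 1218 of the 2436 in the WT list, and 449 fell there. Of the 2805 that fell in the mutant, 1297 also fell in WT, 46.2% of the mutant list and 52.5% of the WT list, and 403 rose there. Among the cellulases, 6 rose and 0 fell in WT, with a median of 0.67. cbh-1 in WT held 8096 and 7456 CPM at 3d and 8535 and 6531 CPM at 5d, which came to -0.05 on the log2 scale (adjusted p = 0.746), while the xylanase gene gh10-1 held 559 and 522 CPM at 3d and 2400.1 and 1558 CPM at 5d (1.87, 2.21e-08). The step was lower in the mutant than in WT, by the interaction term, for 9 of 9 cellulases, 16 of 17 oxidative enzymes, 25 of 27 hemicellulases and 6 of 7 pectin enzymes, where 25.5% of all genes were lower and 26.4% higher (51.9% in all); no member of these lists was higher. The cellodextrin genes differed less: in WT 1 rose and 5 fell, with a median of -0.82, and the interaction was lower for 4 of 6. For cdt-1 and NCU05853 it did not pass (adjusted p = 0.227 and 0.089), but without WT 5d replicate 2 both passed, with interaction values of -0.47 and -0.56.

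**Figure D3:**
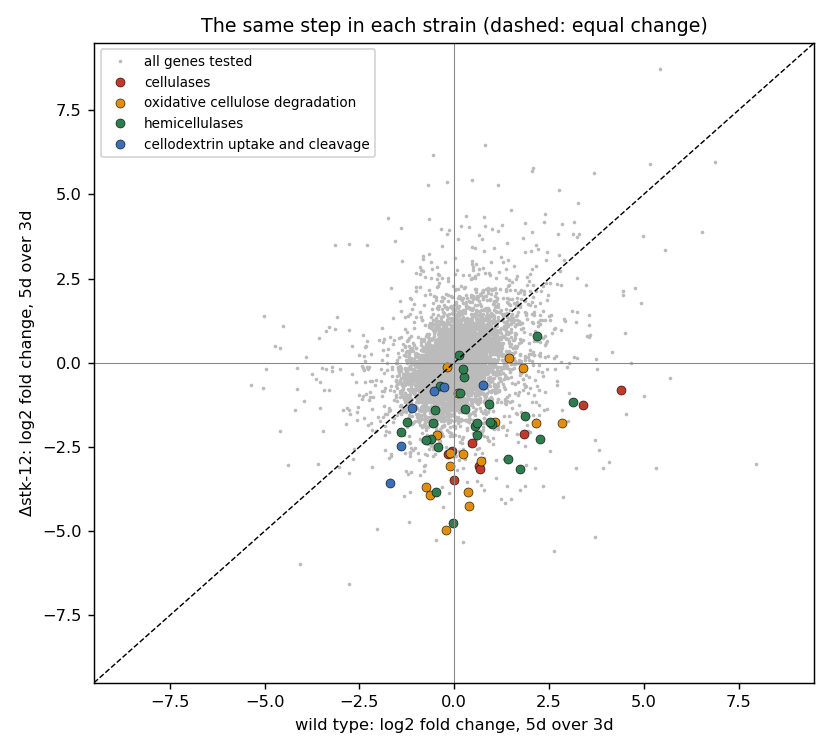
Log2 fold change of 5d over 3d in wild type (horizontal axis) and in Δstk-12 (vertical axis) for each gene tested (grey) and for the members of 4 enzyme lists (coloured); the dashed line marks equal change. All 9 cellulases lie below the line, with mutant values from -3.49 to -0.82.

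Levels before and after the step show where the enzymes stood. In the mutant, cbh-1 held 22339 and 20636 CPM at 1d, below both 3d libraries, and gh10-1 held 2720.3 and 2417 CPM. From 1d to 3d in the mutant, a step that shares the 3d libraries, 5 of 9 cellulases rose and 2 fell (35.6% and 37.0% of all genes, 72.6% in all), and 8 of 27 hemicellulases rose and 12 fell. In WT, cbh-1 was at 23791 and 24410.0 CPM at 1d, above both WT libraries at 3d, and gh6-2 at 15546 and 15656 CPM at 1d and 3506 and 3331 CPM at 3d. Both WT libraries at 3d lay below both at 1d for 7 of 9 cellulases and 14 of 17 oxidative enzymes, and for 41.9% of all genes; these WT levels are given as values, with no test. At 5d, with libraries shared with the mutant step, 7 of 9 cellulases and 15 of 17 oxidative enzymes were lower in the mutant than in WT, against 30.9% of all genes, and none was higher, against 30.6% (61.6% of all genes differed). Other wall enzymes were less uniform at 5d: 17 of 27 hemicellulases were lower and 4 higher, and 4 of 7 pectin enzymes were lower and 2 higher. Of 6 cellodextrin genes 4 were lower and 2 higher. clr-2 stood at 203 and 215 CPM in the mutant at 5d and 244 and 196 CPM in WT, libraries that overlapped.

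Secretion and protein synthesis genes also fell, by less than the enzymes. Many had already fallen in the mutant from 1d to 3d, a step that shares the 3d libraries. In that earlier step 67 of 69 cytosolic ribosomal proteins fell and 2 rose, with a median of -1.17. So did 28 of 30 secretory pathway genes, 5 of 5 endoplasmic reticulum folding genes and 17 of 37 aminoacyl-tRNA synthetase genes, against 37.0% of all genes. From 3d to 5d, 4 of the 5 folding genes fell and 1 rose. grp78, the chief chaperone of that compartment, held 942 and 1024 CPM at 3d and 475 and 493 CPM at 5d (-1.02 ± 0.07 SE, adjusted p = 1.88e-09), and NCU09265, calreticulin, fell most (-1.36). The exception was eor-1, annotated as endoplasmic oxidoreductin-1, at 38.1 and 39.2 CPM at 3d and 116 and 128 CPM at 5d (1.66 ± 0.11 SE, adjusted p = 1.81e-09). Of 30 secretory pathway genes 25 fell and 1 rose, with a median of -0.47; NCU01002, a coatomer subunit, fell most (-1.78). Of 69 cytosolic ribosomal proteins 65 fell and 0 rose, with a median of -0.70, and their share of gene reads went from 4.65% and 4.50% to 3.22% and 3.31%. crp-16, a small-subunit ribosomal protein, fell most (-1.66). In WT 40 of the ribosomal protein genes fell, with a median of -0.27, where 27.5% of all genes fell. The step was lower in the mutant for 55, against 25.5% of all genes. Both WT libraries at 3d lay below both at 1d for 68 of the 69, and for 41.9% of all genes, with no test. At 5d 35 of the 69 were higher in the mutant than in WT and 3 lower, against 30.6% and 30.9% of all genes. Of the secretory genes 13 were higher and 2 lower. Of 37 aminoacyl-tRNA synthetase genes 26 fell and 1 rose; the rise was NCU07082, an aspartyl-tRNA synthetase (1.62). Among 30 proteasome genes, 21 were called lower and 2 higher, and among 53 of the respiratory chain and ATP synthase, 41 and 6. With library totals alone, the median of the ribosomal proteins was -0.52 and 60 fell and 2 rose, while of the synthetase genes 20 fell and 7 rose, and of the secretory genes 21 and 2.

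Most amino acid synthesis genes fell. Of 72 amino acid biosynthesis genes 59 fell and 6 rose, with a median of -1.15. In WT 47 fell, with a median of -0.38, where 27.5% of all genes fell. The step was lower in the mutant for 51, against 25.5% of all genes. From 1d to 3d in the mutant 65 had already fallen and 3 had risen, with a median of -0.92. At 5d 25 were higher in the mutant than in WT and 27 lower, with a median of 0.05. hom-2, homoserine dehydrogenase, which acts on the way to threonine and methionine, held 116 and 106 CPM at 3d and 3.81 and 4.48 CPM at 5d (-4.73 ± 0.11 SE, adjusted p = 1.38e-14). arg-5, of arginine synthesis, fell from 58.2 and 69.5 CPM to 7.48 and 7.99 CPM (-3.04 ± 0.11 SE, adjusted p = 1.18e-12). cpc-1, the transcription factor of cross-pathway control that activates amino acid synthesis genes, held 1855 and 1677 CPM at 3d and 714 and 760.0 CPM at 5d (-1.26 ± 0.10 SE, adjusted p = 8.69e-09). In all of these the 5d libraries lay below the 3d libraries. The largest fall among genes at 50 CPM or more was that of am, which encodes the NADP-linked glutamate dehydrogenase that fixes ammonium, at 1939 and 1810.3 CPM at 3d and 18.3 and 21.5 CPM at 5d (-6.56 ± 0.18 SE, adjusted p = 6.37e-14). In WT am had a log2 fold change of -2.77 over the same days, from 528 and 447 CPM to 85.3 and 57.5 CPM.

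The nitrogen list held 15 genes, of which 11 fell and 3 rose, with a median of -0.72. nit-3, nitrate reductase, held 383 and 339 CPM at 3d and 30.01 and 28.8 CPM at 5d (-3.62 ± 0.13 SE, adjusted p = 1.18e-12). nit-6, nitrite reductase, held 3172 and 3119 CPM at 3d and 454 and 474 CPM at 5d (-2.76 ± 0.09 SE, adjusted p = 4.27e-13). nit-10, a nitrate transporter, held 608 and 613 CPM at 3d and 49.2 and 40.5 CPM at 5d (-3.77 ± 0.10 SE, adjusted p = 5.45e-14). For all of these both 5d libraries were below both 3d libraries. The ammonium transporter gene tam-1 (-1.99) and the glutamine synthetase genes gln-1 (-1.70) and gln-2 (-1.14) also fell. nit-2, the global nitrogen regulator, held 142 and 152 CPM at 3d and 152 and 147 CPM at 5d, with a log2 fold change of 0.02 (adjusted p = 0.782). nit-4, the nitrate-specific activator, and nmr, which restrains nit-2, rose by 0.52 and 0.88. The 3d levels of the nitrate genes were themselves above those at 1d, where nit-10 held 37.6 and 36.4 CPM and nit-3 55.97 and 54.4 CPM. In WT nit-10 held 53.96 and 51.6 CPM at 3d and 83.8 and 98.4 CPM at 5d, a log2 fold change of 0.79. The step differed between the strains for 9 of the 15 genes, all lower in the mutant, where 25.5% of all genes were lower.

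Copper and iron genes, a list put together after their values were seen, were mixed: 8 of 12 fell and 4 rose. NCU00829, annotated as a ferric reductase, held 7806 and 8490.2 CPM at 3d and 445 and 457 CPM at 5d (-4.17 ± 0.19 SE, adjusted p = 1.67e-11), after 42.7 and 41.1 CPM at 1d. tcu-1, a copper transporter of the Ctr family, held 7524 and 8569 CPM at 3d and 1317 and 1333 CPM at 5d (-2.60 ± 0.19 SE, adjusted p = 3.97e-09), after 12.5 and 13.1 CPM at 1d. Both genes were thus high at 3d in both mutant libraries and lower in both at 5d. In WT, tcu-1 held 27.2 and 29.8 CPM at 3d and 277 and 519.6 CPM at 5d and rose by 3.81. tcu-3, another copper transporter, fell by 0.95, whereas cmt, copper metallothionein, which binds copper in the cell, held 198 and 208 CPM at 3d and 556 and 567 CPM at 5d and rose (1.47 ± 0.10 SE, adjusted p = 1.82e-09). sod-2, a superoxide dismutase gene, held 2292 and 2497 CPM at 3d and 338 and 339.5 CPM at 5d (-2.82 ± 0.14 SE, adjusted p = 4.01e-11), while sod-1 rose by 0.87 and cat-1, a catalase gene, by 1.67; of the 6 catalase and superoxide dismutase genes 4 rose and 2 fell.

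**Figure D4:**
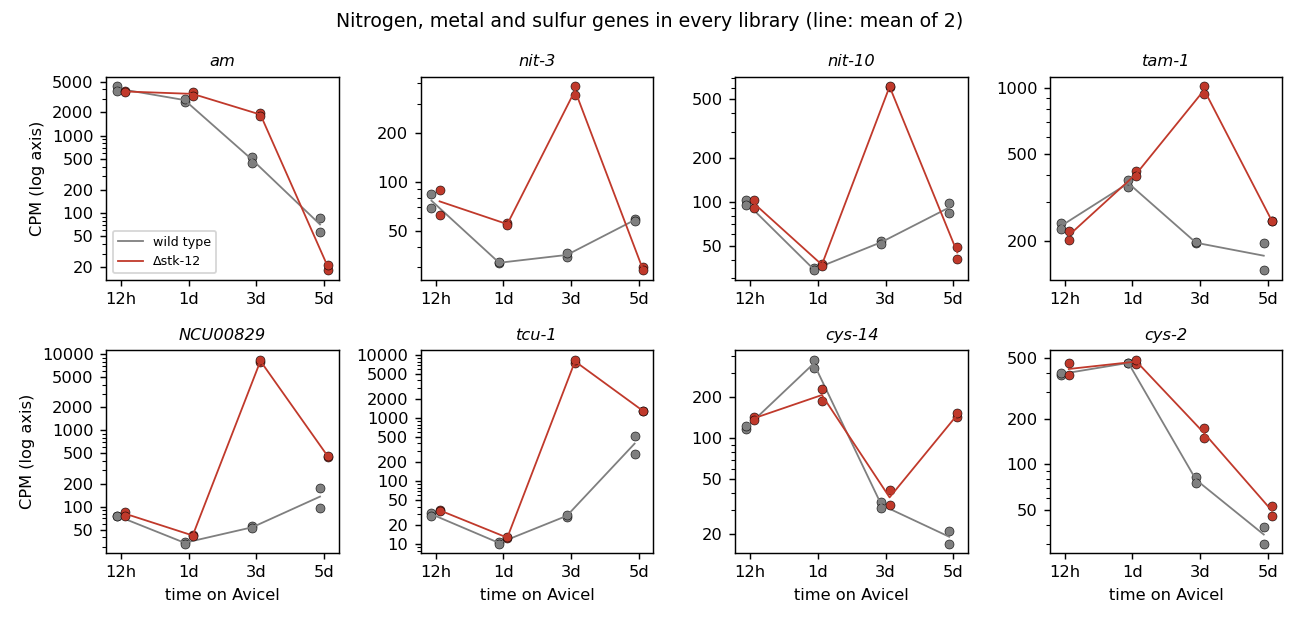
Level in CPM (log axis) of 8 nitrogen, metal and sulfur genes in every library at 12h, 1d, 3d and 5d, in wild type (grey) and Δstk-12 (red); points are libraries and lines join the means of 2. nit-10, nit-3, NCU00829 and tcu-1 were higher at 3d than at 1d in the mutant and fell by 5d, while cys-14 rose from 3d to 5d.

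Sulfur genes, also listed after their values were seen, parted by role. Of 19 uptake and regulatory genes 17 rose and 1 fell, with a median of 1.32; of 8 genes of sulfate reduction and cysteine synthesis 0 rose and 8 fell, with a median of -1.22. NCU07819, annotated as an alpha-ketoglutarate-dependent taurine dioxygenase, an enzyme type that frees sulfite from sulfonates, held 3.22 and 3.17 CPM at 3d and 272 and 288 CPM at 5d (6.45 ± 0.13 SE, adjusted p = 5.91e-15), the largest rise among genes at 50 CPM or more. NCU07610, a second annotated taurine dioxygenase, held 3.52 and 3.797 CPM at 3d and 61.4 and 61.1 CPM at 5d (4.06 ± 0.11 SE, adjusted p = 5.45e-14). cys-14, a sulfate permease, held 32.3 and 41.5 CPM at 3d and 144 and 154 CPM at 5d (2.01 ± 0.12 SE, adjusted p = 5.44e-10). The 5d libraries of all of these lay above the 3d libraries. cys-3, which activates sulfur acquisition genes, rose by 0.68, and scon-2, a negative controller of that system, by 0.83. ars-1, arylsulfatase, rose from 0.396 and 0.144 CPM to 5.69 and 5.22 CPM (4.31 ± 0.38 SE, adjusted p = 4.59e-08), low levels at both times. On the other side, cys-2, sulfite reductase, held 148 and 173 CPM at 3d and 46.1 and 53.4 CPM at 5d (-1.69 ± 0.12 SE, adjusted p = 2.36e-09), and cys-17, cysteine synthase, 100.3 and 98.7 CPM at 3d and 28.1 and 36.9 CPM at 5d (-1.61 ± 0.10 SE, adjusted p = 7.73e-10). cys-5, phosphoadenosine phosphosulfate reductase, and cys-11, sulfate adenylyltransferase, had log2 fold changes of -1.23 and -1.08. In WT 5 of the 19 uptake and regulatory genes rose and 5 fell, near the shares over all genes there (27.1% and 27.5%).

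The genes cfp and adh-1, whose products lead from pyruvate to ethanol, rose. Of 11 genes of ethanol and C2 metabolism 8 rose and 2 fell, with a median of 0.50. cfp, pyruvate decarboxylase, which makes acetaldehyde from pyruvate, held 159 and 164 CPM at 3d and 2076 and 2458 CPM at 5d (3.81 ± 0.17 SE, adjusted p = 1.50e-11). adh-1, alcohol dehydrogenase I, which reduces acetaldehyde to ethanol, held 650.0 and 855 CPM at 3d and 5342 and 6509 CPM at 5d (2.98 ± 0.31 SE, adjusted p = 3.96e-07). Every 5d library lay above every 3d library for both genes. acu-6, phosphoenolpyruvate carboxykinase of gluconeogenesis, held 205 and 196 CPM at 3d and 425 and 403 CPM at 5d (1.05 ± 0.19 SE, adjusted p = 0.000125), and acu-9, malate synthase, rose by 1.05, whereas acu-5, acetyl-coenzyme A synthetase, fell by 1.35 and acu-3, isocitrate lyase, was at 0.06 (adjusted p = 0.506), but was called higher with library totals alone (0.24). Of 10 glycolysis genes 3 rose and 4 fell (4 and 2 with library totals alone); gpd-1, glyceraldehyde 3-phosphate dehydrogenase, rose most (1465 and 1509.7 CPM at 3d and 2840.5 and 3367 CPM at 5d, 1.06 ± 0.09 SE, adjusted p = 2.46e-08) and emp-7, enolase, fell most (-0.88). In WT cfp held 150.4 and 132 CPM at 3d and 129 and 120.0 CPM at 5d and adh-1 1566 and 1267 CPM at 3d and 1021 and 848 CPM at 5d. Earlier in the WT course, at 1d, cfp stood at 2362 and 1829 CPM and adh-1 at 4460.4 and 3899.8 CPM.

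Several of the largest rises have no assigned function. NCU16673, a hypothetical protein, held 21.3 and 31.8 CPM at 3d and 1966 and 1882 CPM at 5d (6.18 ± 0.61 SE, adjusted p = 1.98e-07). NCU01871, which the deposited table counts among transcription factors, held 48.4 and 59.3 CPM at 3d and 2253 and 2217 CPM at 5d (5.37 ± 0.51 SE, adjusted p = 1.36e-07). NCU07853, annotated as uricase, the enzyme that opens the purine ring of urate, held 99.1 and 104 CPM at 3d and 1849 and 2063 CPM at 5d (4.27 ± 0.55 SE, adjusted p = 4.36e-06). Their mutant replicates lay further apart at 1d than at 3d or 5d. At 1d in the mutant NCU16673 stood at 2.52 and 42.6 CPM, NCU01871 at 31.96 and 199.7 CPM and NCU07853 at 25.7 and 219 CPM. In WT NCU01871 was also high earlier in the course, at 928 and 826 CPM at 1d and 81.3 and 82.0 CPM at 3d. Of 6605 genes with a mean of at least 10 CPM in the mutant at 1d, 8 were at least 4-fold higher in replicate 2 than in replicate 1 there. All 8 rose from 3d to 5d, where 31.7% of all genes tested rose. Leaving both 1d libraries out of the fit, a setting added after the data were seen, gave 5762 calls in the mutant step. Among other steep rises, NCU03861, annotated as glutaminase A, held 1.93 and 1.298 CPM at 3d and 79.7 and 81.3 CPM at 5d (5.64 ± 0.21 SE, adjusted p = 1.95e-12), and cea-2, a sterol esterase, held 18.7 and 18.2 CPM at 3d and 336 and 337 CPM at 5d (4.19 ± 0.11 SE, adjusted p = 5.45e-14). NCU09049, NCU07718, NCU08037 and NCU04249, all hypothetical proteins, rose by 5.79, 5.12, 4.42 and 3.96. NCU01853, annotated as choline dehydrogenase, NCU00732, as trichothecene C-15 hydroxylase, and NCU06524, as a protease inhibitor, rose by 4.12, 4.55 and 3.80. The purine catabolism genes, listed after their values were seen, did not move as one: 3 of 10 rose and 7 fell, with NCU09738, a xanthine dioxygenase, at 2.24 and aln-1, allantoinase, at -1.52.

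**Figure D5:**
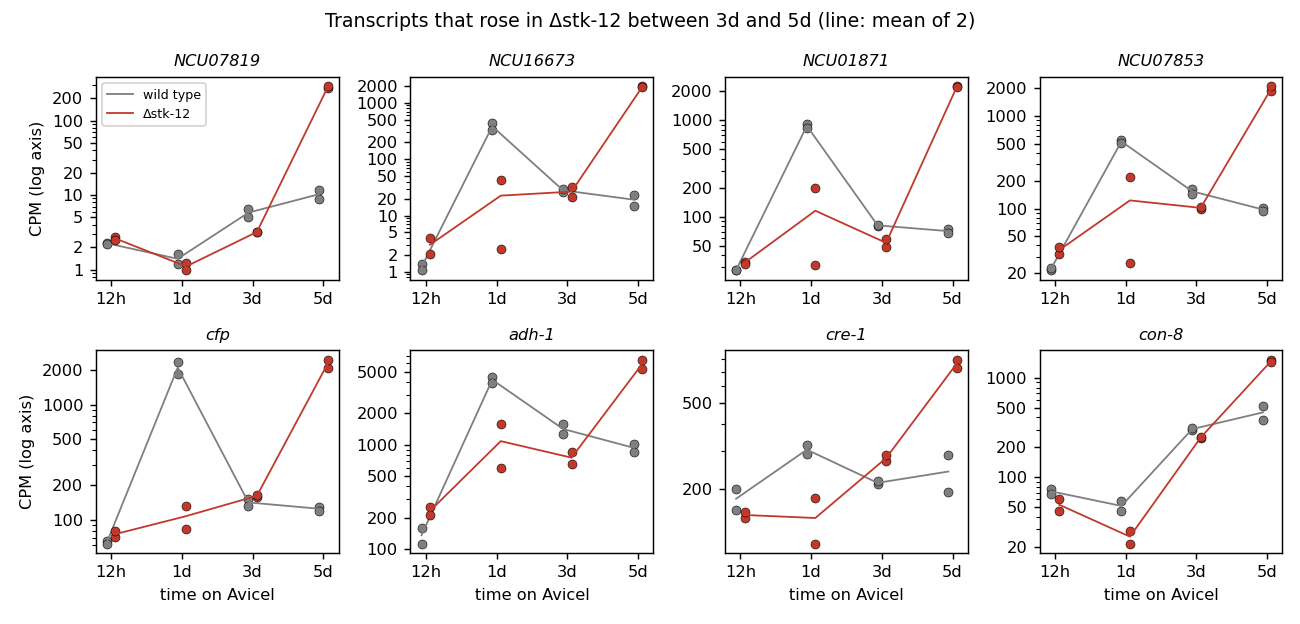
Level in CPM (log axis) of 8 genes that rose in Δstk-12 between 3d and 5d, in every library at 12h, 1d, 3d and 5d, in wild type (grey) and Δstk-12 (red); points are libraries and lines join the means of 2. The mutant libraries lie close together at 5d, at 2076 and 2458 CPM for cfp, and apart at 1d for NCU16673, NCU01871 and NCU07853.

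Transcription factors leaned towards rises. Of 175 genes in the deposited transcription factor column 83 rose and 22 fell, with a median of 0.23, where 31.7% of all genes rose and 31.2% fell. With library totals alone 118 rose and 15 fell, and 65.1% of all called genes were higher in that setting. Among those at 50 CPM or more, NCU02307 (1.73), ts (1.29) and NCU05411 (1.20) rose most besides NCU01871 and cre-1. NCU05411 is annotated as a pathway-specific nitrogen regulator. NCU00155 (1.19), NCU02724 (1.16), csp-1 (1.16), wc-1 (1.16) and col-26 (1.15) came next. wc-1 encodes a blue light receptor and clock factor, and held 46.8 and 55.7 CPM at 3d and 119.7 and 109 CPM at 5d. Of 8 clock and light genes 5 rose and 0 fell, with 3 higher without replicate 1 of the mutant at 3d; vvd, the photoreceptor that damps the light response, held 221 and 213 CPM at 3d and 560.2 and 506 CPM at 5d (1.30 ± 0.29 SE, adjusted p = 0.00105). frq, the central clock gene, rose by 0.28.

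Markers of other cell types were measured beside these groups. Of 8 conidia markers 4 rose and 2 fell, and 1 fell without mutant 3d replicate 1, without 3d replicate 2, without 5d replicate 1 or with library totals alone. Their summed level was 451 and 467 CPM at 3d and 1731 and 1665 CPM at 5d. con-8 made up most of it, at 247 and 255 CPM at 3d and 1528 and 1449 CPM at 5d (2.57 ± 0.16 SE, adjusted p = 5.69e-10). eas, the hydrophobin that coats conidia, fell from 20.9 and 25.4 CPM to 1.88 and 3.58 CPM (-3.05 ± 0.37 SE, adjusted p = 1.96e-06). con-10 held 148 and 151 CPM at 3d and 145 and 157 CPM at 5d, with a log2 fold change of 0.01 and an adjusted p of 0.951. con-6 held 0.545 and 0.721 CPM at 3d and 1.98 and 2.65 CPM at 5d (1.87 ± 0.42 SE, adjusted p = 0.000995). No conidia marker was at 0. All 4 sexual tissue markers tested fell, their sum going from 577 and 643 CPM to 122 and 132 CPM; asd-1, annotated as rhamnogalacturonase B and so also a plant wall enzyme, made up most of it, at 435 and 500.2 CPM at 3d and 36.3 and 45.1 CPM at 5d (-3.52 ± 0.13 SE, adjusted p = 1.45e-12). The part of other cell types in the results above was not tested. In the wider conidiation list 7 of 13 rose and 4 fell, with 2 lower without either 3d library, without 5d replicate 1 or with library totals alone; csp-1, csp-2 and ccg-1 rose by 1.16, 0.84 and 1.11.

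Autophagy genes rose in 7 of 10 cases and fell in 1, against 31.7% and 31.2% of all genes, with a median of 0.35. atg-8, whose product marks autophagosomes, held 587 and 554 CPM at 3d and 993 and 993 CPM at 5d (0.80 ± 0.09 SE, adjusted p = 1.34e-06), and apg-2 rose most (0.84). In WT 6 rose and 3 fell, against 27.1% and 27.5% of all genes. The interaction was higher in the mutant for 3 and lower for 1, where 26.4% of all genes were higher and 25.5% lower. Histone and DNA replication genes are an instance of a lesser fall in the mutant: 18 of 34 fell and 2 rose, with a median of -0.26 (14 and 9 with library totals alone), while in WT 30 fell with a median of -0.75. The interaction was higher in the mutant for 29 of them and lower for 2.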

How the data were processed

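Counts per gene (reads) and RPKM values, which divide by gene length and library total, were deposited by the authors for 9730 genes in each of 16 libraries, per the file headers. TopHat2 (2.0.8b) and HTSeq (0.5.4p3) were named in the submitters' processing notes; genome build and counting strand were not given in the sources used here, so antisense, overlapping or near-identical genes are uncertain. Deposited RPKM served only to rank levels per length. In 2 libraries, entries that named no gene were left out (6.86% of reads in WT 3d replicate 2, 4.43% in mutant 5d replicate 1).

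Low counts were filtered with filterByExpr, leaving 8983 genes. edgeR (4.0.16, R 4.3.3) was fitted to the counts of all 16 libraries with TMM scaling, 1 mean per group and the quasi-likelihood test; p-values were adjusted by Benjamini and Hochberg over all genes, with a threshold of 0.05. Standard errors were derived from the log2 fold change and the F statistic. The script was tested on simulated data. Alternatives were library totals, no or other filters, fewer libraries, a replicate block, each library left out and DESeq2 (1.42.0). For enzyme shares of gene reads, the 10 most abundant genes of each library were also left out.

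Named genes were the 15 largest rises and 15 largest falls with at least 50 CPM in the higher group and no overlap, the largest called rise and fall of each list, a set of known genes, and the 10 largest interaction differences. Members and lists were chosen with earlier results of these data known; other named genes, among them the sulfur, metal and purine genes, were chosen after their values were seen. Symbols and products came from the deposited table and a RefSeq gene table, which held 9729 of the IDs.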

Additional observations from a re-analysis of the deposited data

Results flagged for a closer look

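The step from 3d to 5d differed between the strains for 4663 genes, tested by the interaction of strain and time in edgeR. The values below are the mutant log2 fold change minus that of WT, for the genes named by rule, and each passed an adjusted p of 0.05. For the cellulases the difference was -2.57 for cbh-1, -2.52 for gh6-2, -3.96 for gh6-3, -5.22 for gh6-1, -3.48 for gh5-1, -2.85 for gh7-1, -3.72 for gh7-2, -4.64 for gh7-4 and -3.83 for gh45-1, with 2.27e-09 as the highest adjusted p among them. For other wall-degrading enzymes it was -4.18 for cdh-1, -3.45 for gh10-1, -4.53 for gh11-1 and -6.86 for fea-1 (highest adjusted p 1.16e-09). Cellodextrin genes differed by -1.88 for gh1-1, -1.05 for cdt-2, -1.41 for gh3-4 and -0.43 for gh3-3 (highest 0.00386).

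Among regulators the difference was -0.48 for clr-1, -1.47 for clr-2, 0.48 for xlr-1, 1.40 for col-26 and 1.29 for cre-1 (highest adjusted p 0.00129). Genes of fermentation and carbon metabolism differed by 3.995 for cfp, 3.58 for adh-1, 1.02 for acu-6 and -0.28 for acu-3, where the highest adjusted p was 0.0388. Spore and pigment genes differed by 2.01 for con-8, 1.34 for eas, -1.14 for con-13 and 1.00 for al-2 (highest 0.0301), and the chaperone gene and the copper transporter gene by -0.90 for grp78 and -6.41 for tcu-1. For stk-12 itself the difference was 0.31 (adjusted p = 0.014), and it did not pass without mutant 3d replicate 2 (0.24), without WT 3d replicate 2 (0.28) or with DESeq2 (0.27, adjusted p = 0.0526). eas did not pass without 4 of the libraries, with values from 0.77 to 1.34, al-2 without mutant 3d replicate 1 (0.90), and acu-3 without 4 of them, from -0.28 to -0.20, or with library totals alone (-0.16).

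The largest differences among genes at 50 CPM or more in some group and with reads in WT at 3d included -6.86 for fea-1 and -6.41 for tcu-1, given above. The others were 5.64 for NCU07819, 6.73 for NCU16673, 6.05 for NCU07405, 6.41 for NCU05699, 6.30 for NCU04276, 5.61 for NCU06289 and -6.13 for NCU05788, with 5.28e-05 as the highest adjusted p. NCU04276, a hypothetical protein, held 236 and 322 CPM at 3d and 3177 and 3289 CPM at 5d in the mutant and 466 and 449.8 CPM at 3d and 93.1 and 41.1 CPM at 5d in WT, so that it moved in opposite directions. NCU05788, also hypothetical, held 7.43 and 5.72 CPM at 3d and 4.85 and 4.83 CPM at 5d in the mutant and 2.14 and 2.998 CPM at 3d and 115.2 and 149 CPM at 5d in WT.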

How the results depend on the processing

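The counts of genes called stayed within 1.5 times the reported ones under every alternative run, and medians of the lists described kept their direction except for the regulators, near 0, without mutant 3d replicate 1 (-0.08) or 5d replicate 1 (-0.02), and except with library totals alone, where glycolysis reached 0.074, peptidases 0.0656, amino acid and nitrogen compound transporters 0.09, the carotenoid pathway 0.0658 and fatty acid oxidation and peroxisome genes 0.12; their reported medians were -0.10, -0.11, -0.08, -0.11 and -0.06. Leaving out 1 library of the step gave from 4854 to 5041 calls in the mutant step and from 3959 to 4437 for the interaction. DESeq2 called 5372 genes. Replicates lay furthest apart in WT at 5d, with a chi-square over genes of 22.1 per degree of freedom, against 17.5 in the mutant at 1d. It was 9.01 in the mutant at 3d and 6.30 at 5d. The WT 5d libraries enter every interaction value and every comparison of the strains at 5d. The labels do not pair the replicates, and same-numbered libraries of the mutant at 3d and 5d did not deviate together (correlation 0.002); with a replicate block the mutant step gave 5619 calls, 2833 higher and 2786 lower. Of 132 genes named by rule, 126 passed in the mutant step and 119 of these kept call and sign in every alternative. Of the genes described, ars-1, con-6 and NCU05788 had levels under 10 CPM in every mutant library of the step, so their mutant fold changes rest on few reads.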

Other observations

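Among cell wall and secondary metabolism genes, the step was mixed. Of 37 genes of fungal wall glucan remodelling 17 rose and 9 fell, with 11 higher without mutant 3d replicate 1. gh16-3, a beta-glucanase gene, held 137 and 124 CPM at 3d and 737 and 761 CPM at 5d (2.52 ± 0.12 SE, adjusted p = 2.39e-11), and gh16-1, annotated as a mixed-linked glucanase, 429.5 and 445 CPM at 3d and 125 and 119 CPM at 5d (-1.84 ± 0.08 SE, adjusted p = 1.11e-11). Both also moved in WT, by 3.23 and -2.27. Of the chitinase genes tested 2 of 10 rose and 3 fell; gh18-4 rose by 1.91 and gh18-8 fell by 2.68. Cytochrome P450 genes rose in 9 of 18 cases and fell in 4, with cyp450-15 at 16.04 and 16.3 CPM at 3d and 155 and 163 CPM at 5d and cyp450-11 at 370.4 and 341 CPM at 3d and 49.8 and 51.6 CPM at 5d. Glycosyltransferases rose in 19 of 74 cases and fell in 38, and 11 rose without mutant 3d replicate 1. Scaled by library totals, 24 were higher and 27 lower. Of the class of auxiliary redox enzymes 3 of 25 rose and 15 fell.

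In metabolism, 17 of 49 rose and 21 fell of the fatty acid oxidation and peroxisome genes, with acd-1, an acyl-CoA dehydrogenase, rising most (1.42); 11 rose without mutant 3d replicate 1. Peptidase and inhibitor genes rose in 22 of 85 cases and fell in 34 (14 rose without that library), amino acid and nitrogen compound transporters rose in 9 of 30 and fell in 14. With library totals alone the balance turned in each of these lists: 21 rose and 16 fell of the fatty acid oxidation and peroxisome genes, 35 rose and 27 fell of the peptidase and inhibitor genes, and 12 rose and 11 fell of the transporters. Ribosome biogenesis genes rose in 6 of 45 and fell in 17; 1 rose without mutant 3d replicate 1, 3 without 5d replicate 2, and 11 fell without 5d replicate 1. Scaled by library totals, ribosome biogenesis had 13 higher and 10 lower. Of the heat shock genes 1 of 12 rose and 6 fell, against 4 higher and 4 lower when scaled by library totals. Of the trehalose and glycogen genes 5 of 7 rose and 1 fell, but 1 rose without mutant 3d replicate 1 and 3 without 5d replicate 2. In the carotenoid pathway al-3 rose (0.84) and ylo-1 fell (-0.74), and al-2 passed as a fall (-0.52, adjusted p = 0.0449) but lost the call without any 1 of the 4 libraries of the step, with library totals alone and with DESeq2. NCU01212, a hypothetical protein, had 0 reads in both WT libraries at 3d and 0.678 and 2.403 CPM at 5d, against 81.7 and 101 CPM at 3d and 12.2 and 10.7 CPM at 5d in the mutant. mfa-1, the pheromone gene expressed in the mutant, held 4432 and 5956 CPM at 3d and 3542 and 3356 CPM at 5d (-0.59 ± 0.13 SE, adjusted p = 0.000857).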
